A study of Mus musculus with 4 samples.

Results

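Tbr1, Eomes (also called Tbr2), Otx2 and Calb2, which encodes calretinin, are 4 of the 32285 genes listed in single-cell RNA sequencing of the embryonic mouse cerebellum. They were taken by name, with earlier results of these data known, and all 4 were detected in every library. The cells were dissociated from cerebella of E14.5 mouse embryos and sorted by FACS for the red fluorescent protein tdTomato. In every animal a Cre recombinase driven from Atoh1 removed a stop cassette in front of tdTomato at the Rosa26 locus, so the marked cells are those that have, or descend from cells that have, switched on Atoh1. Control animals were Atoh1-Cre/+ with 1 copy of the R26LSL-tdT reporter. The En1/2 conditional knockout (CKO) animals carried the same driver and reporter together with homozygous floxed alleles of En1 and En2 (En1lox/lox, En2lox/lox), and the controls carried no floxed allele. There were 2 control and 2 CKO libraries, made with 10x Genomics 3′ v3.1 chemistry from pooled animals, with 7000 viable cells targeted per pool.

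Tbr1 and Eomes are T-box transcription factors. In the developing forebrain Eomes marks intermediate progenitors of glutamatergic neurons and Tbr1 their early postmitotic daughters, and in the cerebellum both are known from rhombic lip derivatives: Tbr1 from medial nuclear neurons and Eomes from unipolar brush cells, which keep it into adulthood. Otx2 is a homeodomain factor that patterns the forebrain and midbrain, opposes hindbrain identity at the midbrain-hindbrain organiser, and is later found in granule cell progenitors of the posterior cerebellum. Calretinin is a calcium-binding protein of the EF-hand family that labels subsets of neurons, among them a class of unipolar brush cells. En1 and En2 are homeodomain factors of the midbrain-hindbrain region.

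The promoters are shown because the factors deleted here bind TAAT-core homeodomain sites. They are the 250 bases before each RefSeq gene start (build GRCm38.p6), in lower case, with TAATTA in capitals, a palindromic homeodomain core that reads the same on both strands. In the GENCODE M21 annotation of mm10, whose gene IDs the files use, Tbr1 spans chr2:61802930-61814114 and Eomes chr9:118478212-118486132 on the plus strand, and Otx2 spans chr14:48657677-48673819 and Calb2 chr8:110137502-110168210 on the minus strand. RefSeq gave an entry for 3 of the 4 genes, 1 start each for Tbr1 and Eomes and 4 for Otx2. The Tbr1 window lies on the plus strand at chr2:61804203-61804452, the Eomes window on the plus strand at chr9:118477939-118478188, and the windows of Otx2 starts 1 and 3 on the minus strand at chr14:48667645-48667894 and chr14:48665110-48665359.
Tbr1: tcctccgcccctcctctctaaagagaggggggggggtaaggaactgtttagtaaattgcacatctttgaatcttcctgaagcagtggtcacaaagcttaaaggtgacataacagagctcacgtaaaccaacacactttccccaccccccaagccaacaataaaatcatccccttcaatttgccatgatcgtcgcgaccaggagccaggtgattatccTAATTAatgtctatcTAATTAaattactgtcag
Eomes: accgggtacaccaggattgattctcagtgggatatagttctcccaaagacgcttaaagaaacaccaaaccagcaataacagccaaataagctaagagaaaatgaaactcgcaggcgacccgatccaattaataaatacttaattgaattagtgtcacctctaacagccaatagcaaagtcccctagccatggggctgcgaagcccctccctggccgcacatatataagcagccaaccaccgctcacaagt
Otx2 start 1: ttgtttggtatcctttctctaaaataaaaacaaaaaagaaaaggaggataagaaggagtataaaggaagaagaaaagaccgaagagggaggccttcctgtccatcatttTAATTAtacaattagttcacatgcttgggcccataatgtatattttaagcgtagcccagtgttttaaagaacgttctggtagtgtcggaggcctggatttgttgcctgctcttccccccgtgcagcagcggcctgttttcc
Otx2 start 3: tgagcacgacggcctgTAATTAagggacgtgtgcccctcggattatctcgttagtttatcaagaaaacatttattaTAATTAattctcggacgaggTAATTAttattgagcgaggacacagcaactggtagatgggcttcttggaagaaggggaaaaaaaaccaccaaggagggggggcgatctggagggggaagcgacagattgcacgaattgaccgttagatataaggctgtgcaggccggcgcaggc

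The Tbr1 window holds 2 matches, 33 and 18 bases before the start. The window of Otx2 start 3 holds 3, at 234, 174 and 154 bases, and that of start 1 holds 1, at 141 bases. The Eomes window and the Otx2 windows not shown hold none. Of 32851 promoter windows of this length, 1590 (4.84%) hold TAATTA. The bicoid-type core GGATTA, searched on both strands, was found once in the window of Otx2 start 3, 211 bases before the start, and in 6.25% of all windows. The T-box core AGGTGT, searched on both strands, was in none of the 6 windows and in 11.8% of all. A match describes letters only and shows no binding.

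Barcodes with at least 500 genes, at least 1000 unique molecular identifiers (UMIs) and at most 10% mitochondrial UMIs were kept, which left 2911 cells in control 1, 3931 in control 2, 2007 in CKO 1 and 3697 in CKO 2. The libraries held 14998150 to 33709450 UMIs, and the median kept cell had 2734 and 2122 UMIs in the controls against 5352 and 5544 in the CKO libraries. Libraries shared 1 to 6 barcodes per pair. Levels are given as UMIs of a gene scaled to 1000000 UMIs of the cells summed (CPM). En2 was at 136 and 167 CPM in the controls and at 29.0 and 19.8 in the CKO libraries, so the groups did not overlap. En1 was at 238, 382, 150 and 253 CPM, from 3534, 4052, 3224 and 8053 UMIs, so the groups overlapped. These values are in the order control 1, control 2, CKO 1, CKO 2, which is also the order of all values below. A 3′ tag outside the deleted part would still be counted, and which part of En1 the deletion removes is not given in the sources used here. Marker genes of the granule lineage were all detected in each library (9 of 9, summed level 2663 to 3791 CPM), as were those of excitatory cerebellar nuclei neurons (8 of 8, 994 to 2721). Of 6 unipolar brush cell markers 5 were detected, and Sln was at 0 in every library. Control 2 stood apart in its make-up: cells of the granule lineage-like class, named from its markers, were 64.1, 24.9, 61.1 and 82.1% of the kept cells.

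Each of the 4 genes was detected in a small minority of cells. To compare shares at equal depth, every cell was thinned at random to 2000 UMIs, and the 940, 1786, 422 and 1099 cells below that were left out. Of the remaining 1971, 2145, 1585 and 2598 cells, 84.7, 82.9, 86.3 and 88.9% held no UMI of any of the 4 genes. Intervals on these shares are 95% Wilson intervals and cover counting error only.

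A Tbr1 UMI was found in 1.52% (interval 1.07 to 2.16), 5.64% (4.74 to 6.70), 3.15% (2.40 to 4.13) and 0.770% (0.499 to 1.19) of cells. Control 2 was highest and CKO 2 lowest, with CKO 1 above control 1, so the groups overlapped. Calb2 followed the same order of libraries, with 2.54% (1.93 to 3.33), 6.71% (5.73 to 7.85), 2.84% (2.13 to 3.78) and 0.539% (0.321 to 0.903). Otx2 was found in 4.77% (3.91 to 5.80), 1.07% (0.716 to 1.60), 3.6% (2.79 to 4.63) and 5.81% (4.98 to 6.78) of cells. Here control 2 was lowest and CKO 2 highest. Eomes was found in 7.97% (6.85 to 9.24), 6.20% (5.26 to 7.30), 5.68% (4.64 to 6.93) and 4.62% (3.88 to 5.50), and it was the only one of the 4 in which both CKO libraries lay below both controls. The exact two-sided permutation test over the 4 libraries gave p = 0.33 for Eomes, the smallest value that 2 against 2 allows, and 0.667 for the other three genes. Adjusted over the 4 genes, all were 0.667. Without thinning the Eomes share was 13.9, 7.91, 17.4 and 13.7%, the opposite direction, with deeper cells in the CKO libraries.

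**Figure D1:**
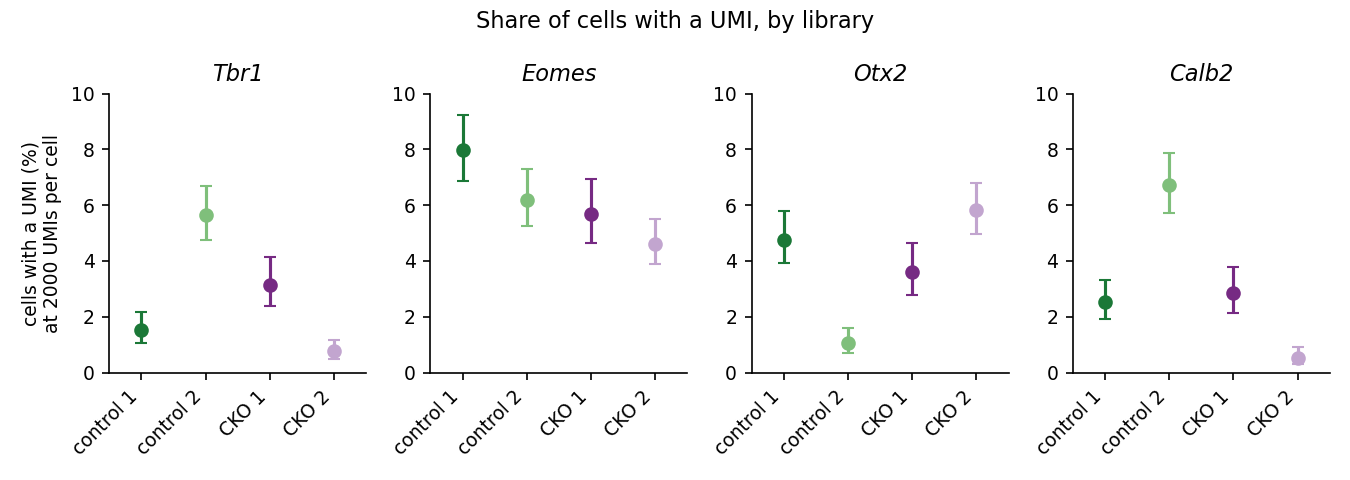
Share of cells with a UMI of each gene (y axis, percent of cells at 2000 UMIs per cell) in the 4 libraries (x axis), with 95% Wilson intervals as bars. Tbr1 and Calb2 are highest in control 2 (5.64 and 6.71%), Otx2 is lowest there (1.07%), and Eomes lies below both controls in both CKO libraries.

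Summed over all kept cells, none of the 4 genes passed the test between genotypes, although both CKO libraries lay below both controls for Calb2 and Eomes. Tbr1 was at 5.65, 30.3, 10.1 and 2.64 CPM, with control 2 far above every other library. Its CKO-to-control log2 fold change was -1.38 (edgeR's quasi-likelihood test, Benjamini-Hochberg adjusted p = 0.499), and it was 0.32 without control 2. Calb2 was at 9.96, 46.7, 8.34 and 2.32 CPM (log2 fold change -2.30, edgeR adjusted p = 0.440). CKO 1 was close to control 1. Otx2 was at 29.1, 5.84, 28.1 and 40.9 (1.11, edgeR adjusted p = 0.464), and Eomes at 44.4, 36.3, 30.8 and 26.2 (-0.37, edgeR adjusted p = 0.494). None of 14710 genes passed the threshold of 0.05 (0.0%), En2 included (-2.51, edgeR adjusted p = 0.396), while 1648 genes had an unadjusted p under 0.05 and DESeq2 called 142. With no filter on low counts the edgeR test called 768 genes, and Tbr1, Otx2 and Calb2 then passed (edgeR adjusted p = 0.0033, 0.0028 and 6.2e-10). Without control 1, which leaves control 2 alone in its group, it called 1398, and the same genes passed at -2.13, 2.71 and -3.02. The labels name pooled animals and replicate experiments, so these p-values measure the spread between pools.

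The 4 genes were spread unequally over cell classes, which were built by clustering without these 4 genes, En1 and En2. Tbr1 and Calb2 were highest in cluster 5, a group of 102, 522, 157 and 132 cells that also had Lmx1a, Nxph4, Nefm and Nefl among its leading genes and was given no cell type name. Tbr1 stood at 111, 102, 147 and 76.3 CPM there, against 3.43, 13.8, 5.11 and 1.65 in the granule lineage-like class and 2.78, 14.9, 6.30 and 0.990 in the excitatory nuclei neuron-like class. Calb2 stood at 174, 175, 156 and 47.7 in cluster 5 and at 10.2, 21.9, 7.40 and 4.46 in the excitatory nuclei neuron-like class. In cluster 5 the controls and CKO 1 were alike for Calb2, and CKO 2 alone was low.

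Eomes was also highest in cluster 5, at 99.2, 88.2, 83.7 and 45.3 CPM, and the granule lineage-like class came next in level, at 49.6, 44.4, 33.7 and 27.4. Within the granule lineage-like class, cluster 1, led by Pcsk5 and Fat2, held Eomes at 93.4, 91.4, 64.7 and 43.3 CPM. In these 2 clusters both controls were above both CKO libraries. Otx2 was a gene of the granule lineage-like class, at 34.7, 15.1, 35.1 and 44.4, and low in cluster 5, at 12, 1.27, 3.16 and 2.39. Among granule lineage-like clusters, Otx2 reached 54.0, 12.6, 45.1 and 59.6 in cluster 12, led by the mitotic genes Ube2c, Cenpa and Cdc20, against 12.1, 32.2, 31.8 and 18 in cluster 11, led by Cdkn1a and Neurod1. Control 2 did not follow that order, on 3 and 11 Otx2 UMIs. For each of the 4 genes the class with the highest mean was above the next in 4 of 4 libraries, although the ranges over libraries overlapped.

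**Figure D2:**
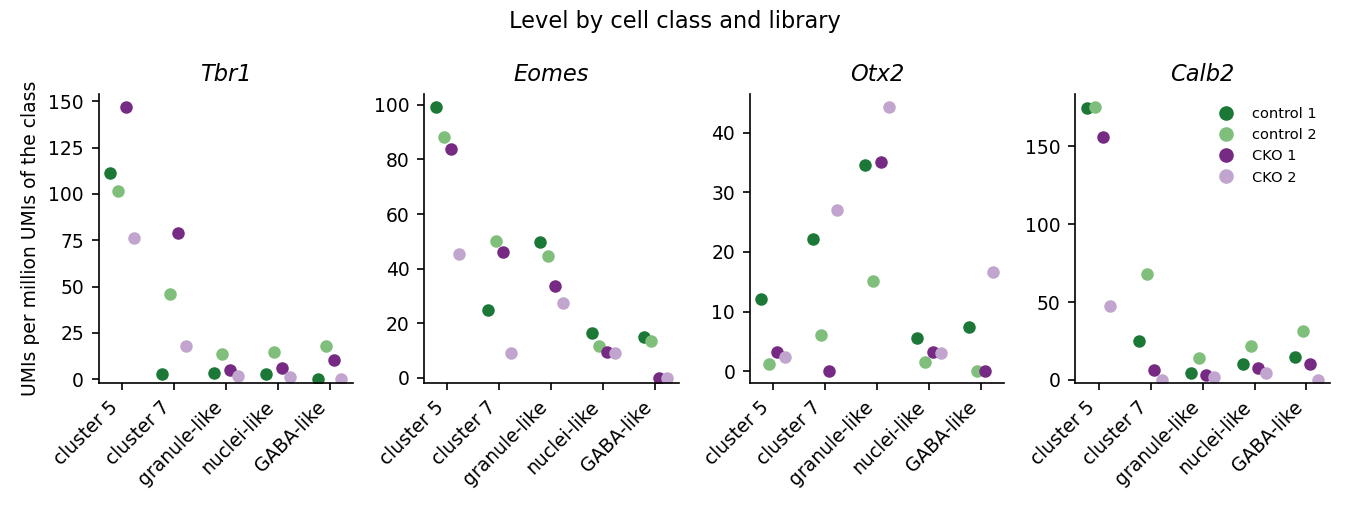
Level of each gene (y axis, UMIs of the gene scaled to 1000000 UMIs of the class) in the 5 largest classes (x axis), 1 point per library. Tbr1, Calb2 and Eomes are highest in cluster 5 and Otx2 in the granule lineage-like class, in all 4 libraries.

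In terms of cells, 56.7, 56.2, 50 and 40.0% of those with a Tbr1 UMI at 2000 UMIs lay in cluster 5, and 40.0, 11.6, 36.0 and 55.0% in the granule lineage-like class. Of cells with an Otx2 UMI, 89.4, 78.3, 96.5 and 98.0% were granule lineage-like, and of cells with Eomes 77.7, 40.6, 76.7 and 95.0%. The share of cells of cluster 5 with a Tbr1 UMI was 21.3, 18.3, 23.6 and 11%, and with a Calb2 UMI 26.3, 18.8, 21.7 and 9.59%. Cells of the GABAergic-like class, with 2125 to 2506 median UMIs, were taken as a background on the untested assumption that they lack these genes. They held Tbr1 in 1.71%, Eomes in 1.71%, Otx2 in 0.855% and Calb2 in 3.42% of 117 cells over the 4 libraries. The Tbr1 shares of 0.884, 2.56, 1.74 and 0.492% in the granule lineage-like class, at median depths of 2225 to 13861 UMIs, were about this background, and so were its Calb2 shares of 1.03, 3.29, 1.07 and 0.268%. Its Eomes shares of 8.98, 9.87, 6.68 and 5.10% and Otx2 shares of 6.19, 3.29, 5.32 and 6.62% were above it in value. With 117 pooled cells, the background is too coarse to tell shares of a few percent from low expression.

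Markers of other cell types were counted in the cells that held each gene. The 6 erythroid markers summed to 20736 CPM in the Calb2 cells of control 2. They summed to 3451 in its Eomes cells, below the 4414 over all kept cells of that library. Cluster 7, which haemoglobin genes lead, held 13.2% of control 2 and 8.11, 2.44 and 1.49% of the other libraries. Without cluster 7 the CKO-to-control log2 fold change of Calb2 over all kept cells was -2.20, as against -2.30 with it. GABAergic markers summed to 84.1, 68.3, 13.8 and 20.2 CPM in Tbr1 cells, against 61.9, 84.0, 22.7 and 27.4 over all kept cells. Cells with Tbr1 had 3261, 2919, 3652 and 2625 median UMIs, where cells without it had 3724, 2951, 12804 and 11300, so that in the CKO libraries Tbr1 cells were far shallower than the rest. Mitochondrial UMIs made up 7.36, 6.90, 6.56 and 4.55% of the median Tbr1 cell, against 5.62, 6.18, 3.18 and 2.24% of the median cell without it. Their part in the results below was not tested.

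Tbr1 and Calb2 were detected together far more often than the product of their shares gives. At 2000 UMIs, 7, 32, 7 and 0 cells held both, where the product gives 0.761, 8.12, 1.42 and 0.108. Of the Tbr1 cells, 23.3% (Wilson interval 11.8 to 40.9), 26.4% (19.4 to 34.9) and 14% (6.95 to 26.2) held Calb2 in control 1, control 2 and CKO 1, against 2.22, 5.53 and 2.48% of the cells without Tbr1. In CKO 2 it was 0 of 20 Tbr1 cells, which allows a share of up to 15%. Over all possible thinnings, the expected number of double cells was 11.3, 3.81, 7.70 and 14 times the product, and without thinning the ratio was 6.90, 3.26, 3.26 and 6.34, so it was above 1 in all 4 libraries, CKO 2 included. Of the 46 double cells at 2000 UMIs, 37 lay in cluster 5. Inside cluster 5 alone the ratio was 1.77, 1.74, 1.69 and 1.51, and in all cells outside it 1.43, 3.97, 0.99 and 2.28. The pair was thus still found together within the cluster, at a smaller excess.

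Eomes and Otx2 were found together at about the product of their shares in the controls and above it in the CKO libraries. Cells with both numbered 7, 0, 8 and 15, where the product gives 7.49, 1.43, 3.24 and 6.98. Of Eomes cells 4.46% (Wilson interval 2.18 to 8.92) held Otx2 in control 1, 8.89% (4.57 to 16.6) in CKO 1 and 12.5% (7.72 to 19.6) in CKO 2. In control 2 it was 0 of 133 Eomes cells, which allows up to 2.26%. With 0.5 added to both terms, the mean log2 ratio was 2.14 higher in the CKO libraries and the groups did not overlap, which the exact permutation test gives p = 0.33, the smallest possible, and 0.667 adjusted over the 6 pairs. Within the granule lineage-like class, which held 27 of the 30 double cells, the ratio over all thinnings was 0.88, 0.09, 1.74 and 1.72. Without thinning the ratio was 1.86, 1.35, 2.86 and 2.09, above 1 in every library, and the groups still did not overlap.

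Tbr1 and Eomes shared 5, 14, 3 and 0 cells, against 2.39, 7.50, 2.84 and 0.924 by the product, with a mean log2 ratio 1.61 lower in the CKO libraries (exact permutation p = 0.33, adjusted p = 0.667). Both CKO libraries were below both controls, on 3 double cells. Eomes and Calb2 shared 10, 7, 5 and 0 cells and Otx2 and Calb2 0, 3, 4 and 0, with no common direction over the libraries. Tbr1 and Otx2, found in different classes, shared 1, 2, 0 and 1 cells. Cells with 3 of the genes were 4 in control 2 and 2 in CKO 1, and no cell held all 4.

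**Figure D3:**
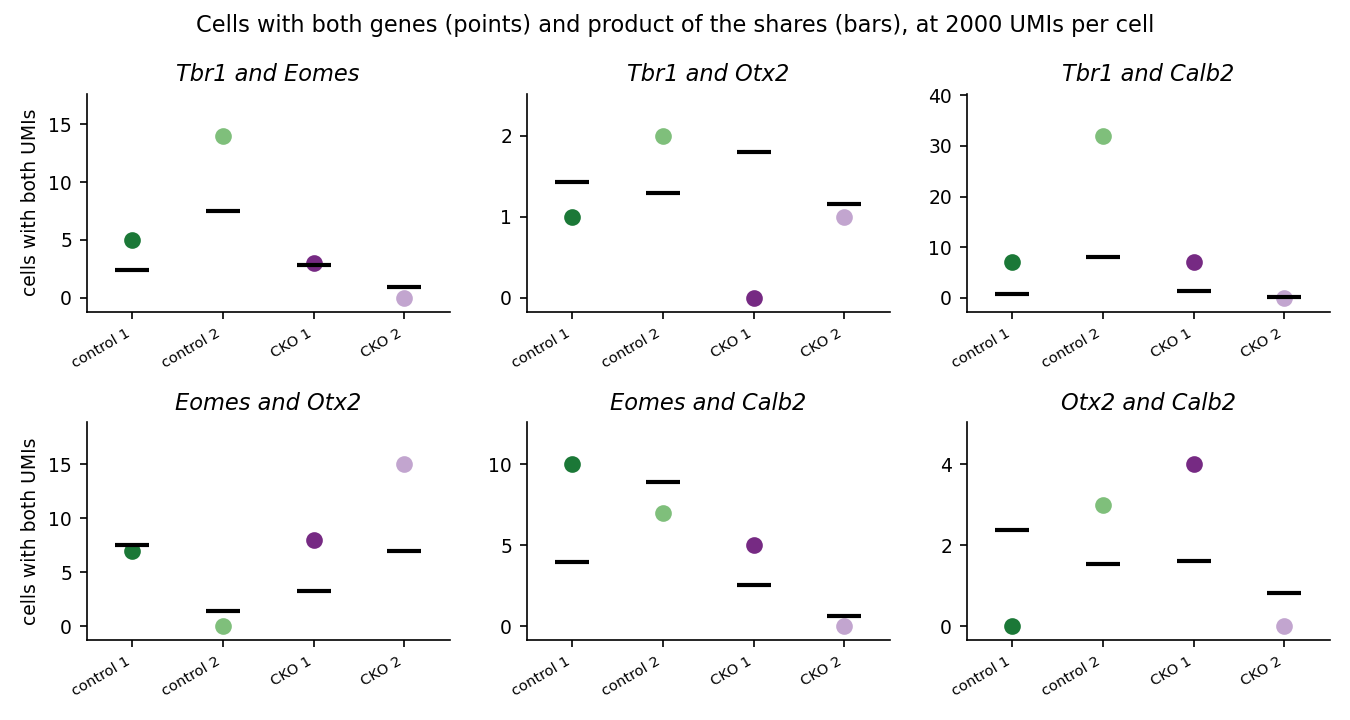
Number of cells with both UMIs (points) and the number that the product of the shares gives (bars) for the 6 pairs, at 2000 UMIs per cell, by library. Tbr1 and Calb2 stand above the product in 3 libraries (7, 32 and 7 cells), and Eomes and Otx2 in both CKO libraries (8 and 15 cells).

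The genes that accompany each of the 4 were found by summing all counts over cells with and without its UMI in each library, in cells of at least 2000 UMIs. The 8 sums were compared by the edgeR test with the library as a term, since both sums of a pair come from 1 library. Cells with Tbr1 numbered 30, 121, 50 and 20, with Eomes 157, 133, 90 and 120, and with Otx2 94, 23, 57 and 151. For Calb2 the unthinned UMI had to be used, which gave 78, 195, 93 and 46 cells. The counts of called genes rest on the library term: without it they were 24 for Tbr1 and 0 for Eomes, Otx2 and Calb2. The p-values and SEs of these fits, and of those within classes below, do not measure how far the 4 libraries agree. Eomes, for example, passed around Otx2 with ratios of both signs over the libraries.

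Calb2 had the largest increase in Tbr1 cells among the genes that meet the naming rule, which asks for a call, the same direction in 4 of 4 libraries and at least 10 CPM. The rankings below follow that rule. Of 11835 genes, 1256 (10.6%) were called, 497 higher (4.2%) and 759 lower (6.41%). Calb2 averaged 167 CPM, here with TMM scaling, in Tbr1 cells and 12.4 in the others, a log2 fold change of 3.98 ± 0.25 (SE, edgeR adjusted p = 1.1e-54), with ratios of 5.0, 2.8, 4.4 and 3.2 in the 4 libraries. Without the library term it was 3.86 (edgeR adjusted p = 0.062). Lmx1a, a LIM homeodomain factor of the roof plate and of unipolar brush cells, rose by 3.44 ± 0.29, higher in all 4 libraries. The other genes with the largest increases under the rule were the synaptic adhesion molecule gene Lrfn5 (2.81), the T-type calcium channel gene Cacna1i (2.54), the postsynaptic scaffold gene Frmpd4 (2.73), and Tmem132b (2.83), Pid1 (2.57), Myh3 (2.57), 4933409K07Rik (3.78) and Gm17167 (2.55).

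The 5 genes that fell most in Tbr1 cells under the rule were Ccnb1 (-3.18), the cyclin of mitotic entry, Birc5 (-2.77), which encodes survivin of the chromosomal passenger complex, Ube2c (-2.73) and Cdc20 (-2.70), which work with the anaphase-promoting complex, and the kinetochore gene Spc25 (-2.63). Eomes was at 0.68 (edgeR adjusted p = 0.093), with ratios of 0.9, 1.2, 0.2 and -0.7, positive in both controls and CKO 1 and negative in CKO 2. Otx2 was lower, by -1.6 (edgeR adjusted p = 0.024), with -1.7, -0.1, -2.2 and -1.4 in the libraries. That call was lost with DESeq2 (adjusted p = 0.17), with no thinning (edgeR adjusted p = 0.28), and without control 1, CKO 1 or CKO 2. Of 13 genes reported as TBR1 targets or partners, the extracellular guidance protein gene Reln (0.60) and the synaptic scaffold gene Cask (0.65) rose, higher in 4 of 4 libraries, and Foxp2 fell (-1.36), with a list median of -0.04. Of 12 genes of the neurogenic cascade, Neurod2 rose and the early members Hes6 (-0.88) and Insm1 (-0.97) fell, with a list median of -0.02. The median over all genes was -0.09. Of 13 EF-hand genes, Calb2 not counted, only Pvalb changed, and it fell (-1.48).

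Tbr1 in turn had the largest increase in Calb2 cells under the rule. Of 11992 genes 103 (0.859%) were called, 88 higher (0.734%) and 15 lower (0.125%). Tbr1 rose by 2.58 ± 0.23, with ratios of 3.3, 2.4, 2.0 and 2.2, and Lmx1a by 2.06. The long non-coding RNA gene Snhg11 (1.86), Lrfn5 (1.84), the teneurin gene Tenm1 (1.78), the semaphorin receptor genes Plxna4 (1.69) and Nrp2 (1.42), Mast4 (1.41), the actin-binding gene Ablim1 (1.35) and the AMPA receptor subunit gene Gria3 (1.35) followed. The Wnt antagonist gene Sfrp1 (-1.11) and the immediate early gene Jun (-0.57) were among those that fell. Eomes (0.05) and Otx2 (0.09) did not pass, and of 12 EF-hand genes 0 passed. With the stricter cell filter 6 genes were called, and Tbr1 was at 1.34 (edgeR adjusted p = 0.69).

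Within cluster 5, the comparison was repeated with any UMI, added after the values had been seen. It took all kept cells of the cluster, from 1000 UMIs, so depth was not equal between cells. Cells with Tbr1 numbered 24, 112, 50 and 23, and 88 of 5323 genes (1.65%) were called. Calb2 rose by 1.74 ± 0.19 (edgeR adjusted p = 5.4e-12), with ratios of 2.0, 1.4, 2.1 and 1.7. The heparan sulphate proteoglycan gene Gpc6 (1.91), Mast4 (1.87), the synapse-organising gene C1ql3 (1.56) and Tenm1 (1.46) rose too. Sst, which encodes somatostatin (-2.52), Mfap4 (-1.88) and the guidance receptor genes Nrp1 (-1.77) and Robo3 (-1.52) fell. Of 9 genes reported as TBR1 targets or partners tested in the cluster, Auts2 fell (-0.67, edgeR adjusted p = 0.00094, lower in 4 of 4 libraries) and none rose, with Reln at -0.04 (edgeR adjusted p = 0.97) and Cask at 0.42 (0.36). The list median was -0.31 and that over all genes 0.0032. Around Calb2, 250 of 5401 genes (4.63%) were called: the synaptic vesicle gene Synpr (2.49), Mast4 (2.26), C1ql3 (2.24), Tenm1 (2.19) and Nrp2 (1.97) rose, and Tbr1 rose by 1.46 (edgeR adjusted p = 5.7e-07). Sst (-2.25) and Lhx2 (-1.76) fell. Both the Calb2 and the Tbr1 call held under each alternative run for them, the fit without the library term included. Around Eomes only 1 of 5035 genes (0.0199%) was called, Snhg11 (-2.24). Cells with Calb2 numbered 28, 114, 32 and 13 in the cluster, and cells with Eomes 25, 104, 29 and 7. Because these cell numbers differ, the counts of called genes cannot be compared between the genes.

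Cells with Eomes had a company that overlapped in part with that of Tbr1. Of 11963 genes 576 (4.81%) were called around Eomes, 315 higher (2.63%) and 261 lower (2.18%). Of 314 genes called higher around Eomes and tested around both, 120 (38.2%) were also called higher around Tbr1. Over all genes tested around Tbr1, 4.2% were called higher. Among the genes that rose most under the rule were Fat2 (1.22), an atypical cadherin of granule cells, the vesicular glutamate transporter gene Slc17a7 (1.19), the integrin gene Itga4 (1.19), Mab21l2 (1.16), Gprin3 (1.14), Lmx1a (1.01), Ptprj (0.98), Neurod1 (0.95) and Rasgef1c (0.94). Neurod1, a bHLH factor of differentiating glutamatergic neurons, was higher by 1.0, 1.0, 0.9 and 1.0 in the 4 libraries. Sst (-1.97), Apoe (-1.75), Mybpc1 (-1.45), C1ql4 (-1.36) and Pvalb (-1.34) fell most under the rule. Of the unipolar brush cell genes, Lmx1a and Plcb1 (0.71) rose and Wls fell, where the median over all genes was -0.01. The 6 unipolar brush cell markers summed to 84.4, 134, 69.4 and 77.0 CPM in Eomes cells. Over all kept cells they summed to 107, 123, 78.0 and 106, so Eomes cells were lower in each library but control 2. Of 12 neurogenic cascade genes 4 rose (Pax6, by 0.47, Neurod1, Neurod2 and Elavl3) and none fell, and Reln rose by 0.71. Of 7 organiser genes 3 fell, Fgf17, Pax5 and Spry2, with a list median of -0.55. Fgf17 was at 0.457 CPM in Eomes cells and 8.23 in the others.

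Otx2 was higher in Eomes cells, by 0.63 (edgeR adjusted p = 0.018), but its ratios were 0.1, -1.1, 1.3 and 0.5, and the call was lost with DESeq2, with summed thinned counts, without the library term and without CKO 1 (0.29, edgeR adjusted p = 0.46). Calb2 (0.61, edgeR adjusted p = 0.25) and Tbr1 (0.34, 0.66) did not pass, and at 3000 UMIs per cell both did (0.86 and 1.10). Restricted to the granule lineage-like class, 540 of 10346 genes (5.22%) were called around Eomes, with Furin, the adaptor gene Sorbs2 (1.15), Slc17a7 (1.12) and Slc17a6 (1.04) higher and Pvalb (-1.49) and the activin antagonist gene Fst (-1.46) lower. Otx2 did not pass there (0.45, edgeR adjusted p = 0.154).

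Around Otx2, 1496 of 12044 genes (12.4%) were called, 629 higher (5.22%) and 867 lower (7.2%). Under the rule, the largest increases were in Abca4 (2.23), a lipid transporter gene of photoreceptors, Inhbb (1.85), an activin subunit gene, Ror2 (1.79), a Wnt5a receptor gene, Olig3 (1.77), a bHLH factor of dorsal hindbrain progenitors, the homeobox gene Tlx3 (1.74) and Vat1l (1.70), with Slc24a3, Optc, Stx3 and Nell1. Snhg11 (-3.02), Robo3 (-2.96), Sst (-2.86), Meis2 (-2.78), a TALE homeodomain factor of cerebellar nuclei neurons, and Nrp1 (-2.71) fell most under the rule. Of 12 genes of nuclei neurons 6 fell and 0 rose (median -0.70), and of 13 genes reported as TBR1 targets or partners 6 fell and 0 rose (median -0.15).

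Of 7 midbrain-hindbrain organiser genes tested in Otx2 cells, En1, En2, Fgf17, Pax5 and Spry2 fell and Fgf8 rose. Their median log2 fold change was -0.93, where that over all genes was 0.00. En1 fell by -1.85 (edgeR adjusted p = 2.9e-35), with ratios of -1.5, -1.1, -2.6 and -1.9, so it was lower in both controls and both CKO libraries. Without the library term its edgeR adjusted p was 0.19 at the same fold change. En2 fell by -0.75 (edgeR adjusted p = 8.1e-05) and Pax5, a paired-box factor of the organiser, by -2.28 (-1.4, -1.5, -2.9 and -3.3). Fgf8, the organiser's secreted signal, was at 1.55, but higher in only 2 of 4 libraries, and its call was lost with DESeq2 (adjusted p = 0.49), without control 1 and without CKO 2. In the granule lineage-like class alone, where 589 of 10561 genes (5.58%) were called, En1 fell by -1.63 (edgeR adjusted p = 8.1e-21), with -1.3, -1.6, -2.1 and -1.7, while En2 did not pass (-0.48, edgeR adjusted p = 0.062). Abca4 (2.09), Mab21l2 (2.12) and Olig3 (1.56) rose there, and the neuronal surface protein gene Islr2 (-2.35) fell.

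Eomes was higher in Otx2 cells by 1.03 (edgeR adjusted p = 3.8e-10), with ratios of 0.3, -0.9, 1.6 and 1.1, large in the CKO libraries and not in the controls. The call was lost with DESeq2 (adjusted p = 0.080), with summed thinned counts (edgeR adjusted p = 0.11) and without the library term (0.28). Calb2 (-0.48, edgeR adjusted p = 0.48) and Tbr1 (-0.90, 0.20) did not pass, and both passed as lower when any UMI decided (-1.1 and -0.95). The direct test of whether the Eomes ratio differs by genotype gave 1.14 (edgeR adjusted p = 0.096). Otx2 cells were deeper than the rest in every library, with median UMIs of 4845, 3116, 18077 and 12728 against 3656, 2950, 12327 and 11189, and the part of depth in these calls was not tested beyond the thinned counts.

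**Figure D4:**
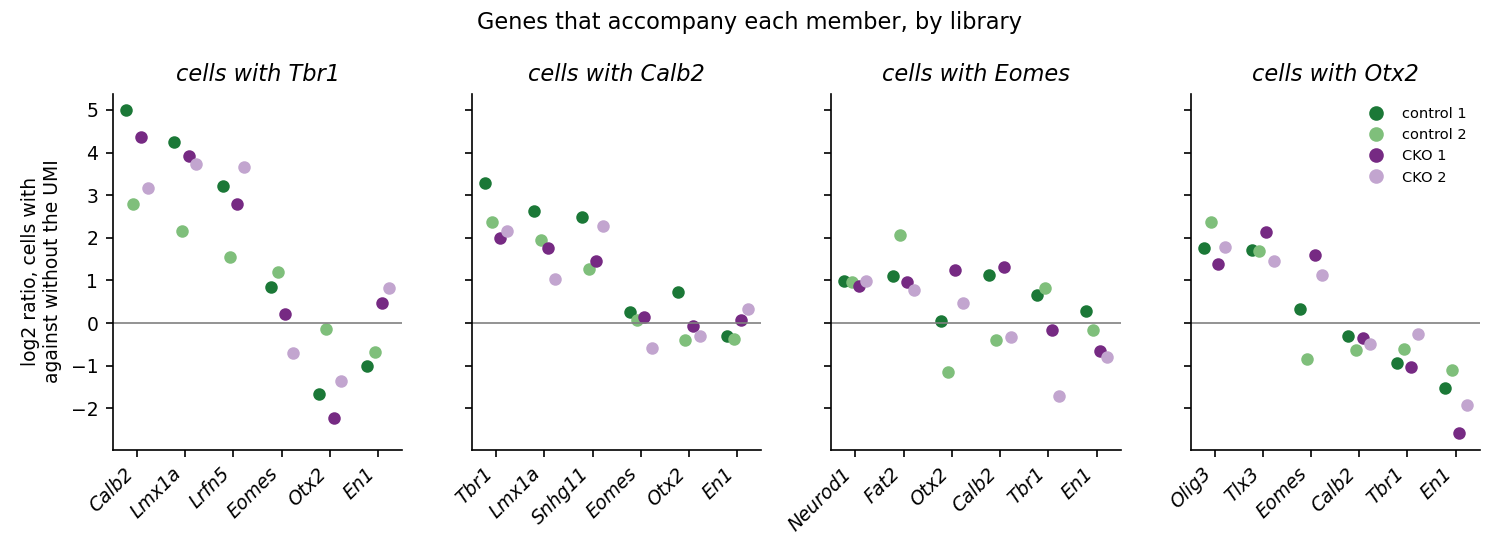
Log2 ratio of 6 genes each in cells with against cells without a UMI of Tbr1, Calb2, Eomes or Otx2 (y axis), 1 point per library, line at 0. Calb2 in Tbr1 cells, Tbr1 in Calb2 cells and Neurod1 in Eomes cells are above 0 in all 4 libraries, and En1 in Otx2 cells is below 0 in all 4.

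Between genotypes, the levels of the 4 genes, where tested, did not pass in the granule lineage-like class or in cluster 5. The excitatory nuclei neuron-like class was fitted too, and its Tbr1 log2 fold change ran from -3.25 to 0.63 when 1 library was left out. In the granule lineage-like class, where 7 of 13936 genes (0.0502%) were called, Otx2 was at 0.74 (edgeR adjusted p = 0.433), Eomes at -0.49 (0.445), Tbr1 at -1.07 and Calb2 at -1.79 (0.261). Both CKO libraries lay below both controls for Eomes and Calb2 and above both for Otx2, by little against control 1, and those for Tbr1 overlapped the controls. En2 was called there (-2.47, edgeR adjusted p = 0.0020, and 0.15 with the replicate number as a block), as was Sema5a (-1.70), a semaphorin gene, and S100a10 (2.22) rose. In cluster 5, where 1 of 7452 genes (0.0134%) was called, Tbr1 was at 0.07, Calb2 at -0.76 and Eomes at -0.52. There En2 was at -1.36 (edgeR adjusted p = 0.424).

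Within cells that hold a UMI of 1 of these genes, En2 was the change that recurred. In Tbr1 cells En2 stood at 155, 185, 26.4 and 20.7 CPM (-2.79, edgeR adjusted p = 0.0091). In Eomes cells it stood at 121, 125, 16 and 15 (-2.98, edgeR adjusted p = 0.0082), and in Otx2 cells at 82.5, 127, 7.33 and 14.7 (-2.99, edgeR adjusted p = 0.0010). In Calb2 cells it stood at 129, 120, 24.0 and 12.7 (-2.67) and just missed the threshold (edgeR adjusted p = 0.050). The groups did not overlap in any of these. The En2 call was lost without control 2 in Tbr1 cells (-2.63, edgeR adjusted p = 0.29) and in Eomes cells (-2.96, 0.30), and without CKO 1 in Otx2 cells (-2.67, 1.0). When any UMI decided it was lost in Tbr1 cells (edgeR adjusted p = 0.055) and in Eomes cells (0.13). It was also lost with summed thinned counts (edgeR adjusted p = 0.20) and with the replicate number as a block (0.19) in Tbr1 cells and with DESeq2 in Otx2 cells (adjusted p = 0.11), while the log2 fold change stayed negative in each of these.

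Within Tbr1 cells, 50 of 4678 genes (1.07%) passed, with 39 higher (0.834%) and 11 lower (0.235%) in the CKO. C1ql3 fell from 289 and 370 CPM in the controls to 46.2 and 31.0 (-3.00, edgeR adjusted p = 0.0028), the synaptotagmin gene Syt4 fell by -2.59, and the protocadherin gene Pcdh17 went from 866 and 478 to 89.2 and 145 (-2.58). The cell adhesion gene Negr1 (-2.49), the helix-loop-helix factor Ebf1 (-1.89), Smpd3, Sorbs2 and Sez6l2 fell too. Ccnd2, a cyclin of proliferating progenitors, rose from 255 and 92.6 to 442 and 1282 CPM (2.47), with Isoc1 (3.09), S100a10 (2.75), Mfap4 (1.99), Aprt, Zfp36l1, Spsb4, Prdx6, Id2 and Selenom. Calb2 was at 311, 284, 165 and 31.0 (-1.30, edgeR adjusted p = 0.145) and Eomes at -1.33 (0.188). These calls were fragile: 0 genes were called with the replicate number as a block, 0 when any UMI decided, 21 at 3000 UMIs per cell and 8 with summed thinned counts, and C1ql3 was at -0.74 (edgeR adjusted p = 0.32) at 3000 UMIs. As given above, 40.0 to 56.7% of the Tbr1 cells lay in cluster 5, and CKO 2 had the fewest there and the most in the granule lineage-like class.

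Within Eomes cells 4 of 9543 genes (0.0419%) were called, all lower: En2, the NMDA receptor subunit gene Grin2b (45.6, 63.3, 8.43 and 7.12 CPM, -2.76), the GABA receptor subunit gene Gabra2 (78.3, 135, 18.6 and 13.5, -2.70) and the neurexin gene Nrxn3 (153, 171, 25.3 and 37.0, -2.36). No gene was called without control 2, or when any UMI decided. The 8 GABAergic markers summed to 61.1, 58.5, 8.94 and 24.4 CPM in Eomes cells and to 61.9, 84.0, 22.7 and 27.4 over all kept cells. Nrxn3 is the leading gene of the GABAergic-like cluster 15, and 77.7, 40.6, 76.7 and 95.0% of Eomes cells were granule lineage-like. Their part in these calls was not tested. Otx2 was at 29.7, 2.11, 66.6 and 60.5 CPM in Eomes cells, both CKO libraries above both controls (1.71, edgeR adjusted p = 0.230). Within Otx2 cells En2 was the 1 gene called of 9184 (0.0109%), and En1 was at -1.32 (edgeR adjusted p = 0.925). Within Calb2 cells none of 8393 was called (0.0%), with Tbr1 at 41.4, 115, 35.2 and 12.7 CPM (-1.6, edgeR adjusted p = 0.446). Of the Calb2 cells, 42.3, 15.4, 49.5 and 69.6% were granule lineage-like and 33.3, 44.6, 31.2 and 21.7% lay in cluster 5. Cells marked as doublets were 5.13, 4.10, 2.15 and 10.9% of the Calb2 cells and 2.27, 3.79, 2.01 and 3.84% of the cells without it. The part of make-up and doublets in these values was not tested.

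**Figure D5:**
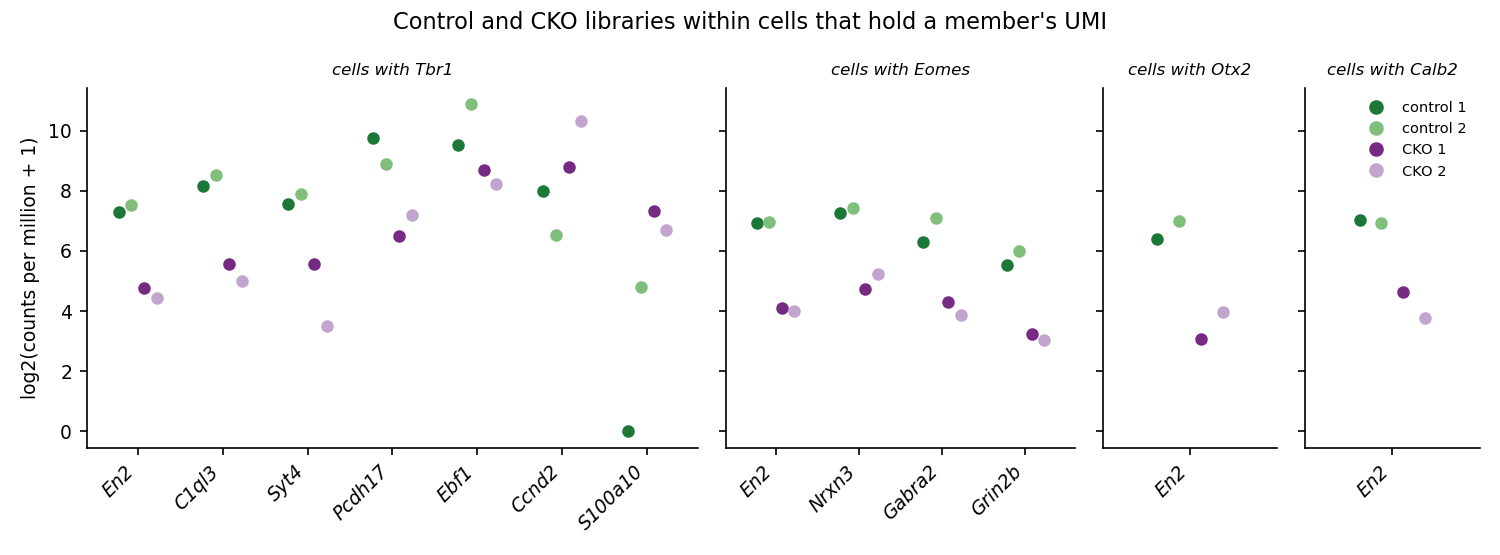
Levels of called genes, and of En2 in Calb2 cells, on a log2(CPM + 1) scale (y axis) within cells that hold a UMI of Tbr1, Eomes, Otx2 or Calb2, 1 point per library. In all 4 panels both CKO points of En2 lie below both control points, and Ccnd2 and S100a10 are higher in the Tbr1 panel.

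Whether a gene accompanies 1 of the 4 differently in the CKO was tested directly by an edgeR interaction term on the same sums. It passed for 2 of 11835 genes (0.0169%) around Tbr1, 6 of 11963 (0.0502%) around Eomes, 7 of 12044 (0.0581%) around Otx2 and 3 of 11992 (0.025%) around Calb2, and for none of the 4 genes themselves.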

How the data were processed

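Per the file headers and the submitters' processing notes, the authors made the matrices with Cell Ranger 5.0.0 on mm10, and the deposited values are raw UMI counts per gene and barcode, with no normalization. The annotation they used is not given in the sources used here, and gene positions come from GENCODE M21. Cells were kept at 500 genes, 1000 UMIs and 10% mitochondrial UMIs. The 0.8% of cells per 1000 with the highest Scrublet doublet score (68, 124, 32 and 109 cells) were kept and left out as an alternative. Clusters (scanpy 1.11.5, 2000 variable genes, 30 components, 20 neighbours, Leiden resolution 1.0) were built without the 4 genes, En1 and En2, and without haemoglobin, sex-linked, ribosomal-protein or mitochondrial genes, and were named from marker lists after they had been seen.

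Counts were summed per library, or per library and cell class or group of cells, and tested two-sided with edgeR 4.0.16 (quasi-likelihood, TMM, filterByExpr, R 4.3.3) and Benjamini-Hochberg adjustment over all genes tested in a fit, with DESeq2 1.42.0 as an alternative. A gene is called at an adjusted p under 0.05, and CPM are TMM-scaled in the fits and unscaled elsewhere. Shares and co-detection were compared by exact permutation over libraries (scipy 1.17.1). For Calb2, which had 14 cells in CKO 2 at 2000 UMIs where at least 20 were asked for, any UMI decided. This and the fits within classes were added after the data had been seen. The minimum of 20 cells was not applied to the fits within classes. In cluster 5, CKO 2 had 7 Eomes and 13 Calb2 cells, and control 2 had 18 Otx2 cells in the granule lineage-like class. The fit was tested on simulated counts, in which every gene had the same fixed spread and the libraries did not differ in make-up. Over all kept cells (14630 genes) it called 96.9% of genes changed 4-fold and 16.2% of those changed 2-fold. These were 85.6% and 13.6% within Tbr1 cells (4611 genes), and 68.0% and 19.6% for genes that accompany Tbr1 (11708 genes). The real libraries did differ in make-up, so these shares do not give the power of the fits above.

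Genes are named if they are 1 of the 4, En1, En2 or in 1 of 7 lists, or are up to 10 called genes higher and 5 lower around each gene, in 4 of 4 libraries, or up to 10 each way between genotypes with no overlap, at 10 CPM or more, by size of change. Some genes that meet this rule are not reported here. The 4 genes and all lists were chosen with earlier results of these data known. Promoters come from RefSeq (GRCm38.p6).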

Additional observations from a re-analysis of the deposited data

Results flagged for a closer look

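The genes that accompany Eomes, Otx2 or Calb2 were compared between genotypes by an edgeR interaction term, which tests the difference of the 2 log2 ratios itself (CKO minus control). Around Tbr1 2 of 11835 genes (0.0169%) passed, and neither meets the rule for naming genes. The values here are differences of log2 ratios, followed by the ratio in control 1, control 2, CKO 1 and CKO 2.

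Around Eomes 6 of 11963 genes (0.0502%) passed. The GABA receptor subunit gene Gabra2 differed by -1.80 (edgeR adjusted p = 0.0021), with ratios of 1.1, 0.9, -0.7 and -0.8, so it was higher in Eomes cells of both controls and lower in those of both CKO libraries. The neuronal surface protein gene Islr2 differed by -1.06 (1.2, 1.3, -0.3 and 0.4). En1 differed by -0.83 (edgeR adjusted p = 0.043), with 0.3, -0.2, -0.7 and -0.8. Dqx1 differed by -3.36 (-0.5, 0.6, -3.2 and -3.0), and its direction was the opposite under the stricter cell filter and when any UMI decided. With DESeq2 none of these calls was made (adjusted p = 0.081 for Gabra2 and Dqx1, 0.16 for Islr2 and 0.85 for En1). Under the stricter cell filter Gabra2 (edgeR adjusted p = 0.69) and Islr2 (0.59) did not pass. With summed thinned counts Gabra2 (edgeR adjusted p = 0.45), Islr2 (0.089) and En1 (0.82) did not pass. Gabra2 (edgeR adjusted p = 0.33) and En1 (0.97) also missed at 3000 UMIs per cell, as did Dqx1 (0.69), and Gabra2 and En1 missed when any UMI decided (0.47 and 0.72). So did En1 without control 1, CKO 1 or CKO 2 and Islr2 without CKO 1. In the GABAergic-like class the level of Dqx1 was 9.68, 5.90, 280 and 425 CPM, higher in both CKO libraries, so its shift between genotypes was not confined to Eomes cells.

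Around Otx2 7 of 12044 genes (0.0581%) passed. The vesicular glutamate transporter gene Slc17a6 differed by 1.23 (edgeR adjusted p = 0.0087), with -0.5, -1.5, 0.3 and 0.7, so it was lower in Otx2 cells of both controls and higher in those of both CKO libraries. Atg2a, an autophagy gene, differed by 2.05 (-1.2, -1.3, 0.1 and 1.0) and Sorbs2 by 0.91 (0.3, -0.6, 1.0 and 0.9). Robo3, an axon guidance receptor gene of commissural neurons, differed by -2.35 (-2.0, -1.7, -3.9 and -4.1), lower in Otx2 cells of every library, and it was at 0.11 when any UMI decided. Gpc3 differed by -1.35 and Phlda1 by -1.09. None of these calls was made by DESeq2, or with summed thinned counts.

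Around Calb2 3 of 11992 genes (0.025%) passed, of which the tubulin gene Tuba1c meets the naming rule, at -1.61 (1.5, 0.6, -0.4 and -0.1).

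The co-detection of Eomes and Otx2 was above the product of their shares in both CKO libraries (8 cells against 3.24 and 15 against 6.98), about the product in control 1 (7 against 7.49) and below it in control 2 (0 against 1.43), a difference of 2.14 in the mean log2 ratio. The exact permutation test of this difference gave p = 0.33, the smallest value possible with 2 libraries a group. Without thinning the ratio was above 1 in every library, at 1.86, 1.35, 2.86 and 2.09.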

How the results depend on the processing

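Of the shares, the pairs, the counts of called genes and the fold changes of the 4 genes over all cells or around each other, 390 values under an alternative kept direction and side of the threshold. Another 143 moved, mostly counts of called genes by over 1.5 times, 24 changed sign, 19 lost a call and 14 gained one. Of the other named fold changes 1666 kept both, 412 lost a call, 14 gained one and 9 changed sign. The cause was not tested. Calls between genotypes rest on 2 libraries a group that differ in depth and in the make-up of their cells, and co-detection rests on few cells. A share of cells with a UMI is not the share of cells that express the gene. A library left alone in its group is assumed to vary like the others. Fits of the stricter cell filter within Tbr1 cells, Otx2 cells, cluster 7 and the GABAergic-like class were not run, since a library had under 10 cells there, and Calb2 at 2000 UMIs likewise (under 20).

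DESeq2 gave 142 genes called over all kept cells, 37 in the granule lineage-like class, 258 in the excitatory nuclei neuron-like class, 3 in cluster 5 and 101 within Tbr1 cells. DESeq2 also called 757 around Tbr1, 0 for the genotype difference around Tbr1, 53 within Eomes cells, 275 around Eomes and 0 for the genotype difference around Eomes. DESeq2 also called 0 within Otx2 cells, 570 around Otx2, 0 for the genotype difference around Otx2, 2 within Calb2 cells and 1 for the genotype difference around Calb2. DESeq2 also called 222 around Eomes in granule lineage-like cells, 130 around Otx2 in granule lineage-like cells, 29 around Tbr1 in cluster 5, 125 around Calb2 in cluster 5 and 0 around Eomes in cluster 5. Otx2 around Tbr1 at -1.48, Otx2 around Eomes at 0.52, Eomes around Otx2 at 0.86 and Eomes around Otx2 in granule lineage-like cells at 0.32 no longer passed. The unfiltered fit gave 768 genes called over all kept cells, 301 in the granule lineage-like class, 766 in the excitatory nuclei neuron-like class, 39 in cluster 5 and 88 within Tbr1 cells. The unfiltered fit also called 1 for the genotype difference around Tbr1, 352 within Eomes cells, 15 for the genotype difference around Eomes, 15 within Otx2 cells and 66 within Calb2 cells. The unfiltered fit also called 181 around Calb2, 23 for the genotype difference around Calb2 and 11 around Eomes in cluster 5. Tbr1 over all kept cells at -1.31, Otx2 over all kept cells at 1.15 and Calb2 over all kept cells at -2.23 now passed. Eomes around Calb2 at -0.021 changed sign. The choice of cells by any UMI gave 0 genes called within Tbr1 cells, 656 around Tbr1, 8 for the genotype difference around Tbr1 and 0 within Eomes cells. The choice of cells by any UMI also called 2472 around Eomes, 6 within Otx2 cells, 3527 around Otx2 and 277 for the genotype difference around Otx2. Otx2 around Tbr1 at -0.42 no longer passed. Eomes around Tbr1 at 0.60, Tbr1 around Eomes at 0.50, Tbr1 around Otx2 at -0.95 and Calb2 around Otx2 at -1.12 now passed. Calb2 around Eomes at -0.031, Dqx1 for the genotype difference around Eomes at 0.45 and Robo3 for the genotype difference around Otx2 at 0.11 changed sign. The fit without the library term (no replicate block) gave 24 genes called around Tbr1, 0 around Eomes, 0 around Otx2, 0 around Calb2 and 0 around Eomes in granule lineage-like cells. The fit without the library term also called 19 around Otx2 in granule lineage-like cells, 8 around Tbr1 in cluster 5, 23 around Calb2 in cluster 5 and 0 around Eomes in cluster 5. Otx2 around Tbr1 at -1.92, Calb2 around Tbr1 at 3.86 and Otx2 around Eomes at 0.69 no longer passed. Eomes around Otx2 at 0.91, Tbr1 around Calb2 at 2.63 and Eomes around Otx2 in granule lineage-like cells at 0.71 no longer passed. The stricter cell filter (1500 genes, 5% mitochondrial UMIs) gave 96 genes called in the excitatory nuclei neuron-like class, 6 in cluster 5, 1 within Eomes cells, 1 for the genotype difference around Eomes and 6 around Calb2. Tbr1 around Calb2 at 1.33 no longer passed. Co-detection of Eomes and Calb2 at 1.52, Eomes in the excitatory nuclei neuron-like class at 0.45, Eomes in cluster 5 at 0.67, Dqx1 for the genotype difference around Eomes at 6.46 and Eomes around Calb2 at -0.11 changed sign. Thinning to 3000 UMIs gave 21 genes called within Tbr1 cells, 12 for the genotype difference around Tbr1, 1052 around Eomes, 10 for the genotype difference around Eomes and 3 within Otx2 cells. Tbr1 around Eomes at 1.10, Calb2 around Eomes at 0.86 and Tbr1 around Otx2 at -1.39 now passed. Co-detection of Tbr1 and Calb2 at 0.24 and co-detection of Otx2 and Calb2 at -1.43 changed sign. Summing thinned counts gave 8 genes called within Tbr1 cells, 435 around Tbr1, 2 within Eomes cells and 162 around Eomes. Summing thinned counts also called 16 within Otx2 cells, 560 around Otx2 and 0 for the genotype difference around Otx2. Otx2 around Tbr1 at -0.88, Otx2 around Eomes at 0.70 and Eomes around Otx2 at 0.79 no longer passed. Leaving out cells marked as doublets gave 39 genes called in the granule lineage-like class, 7 within Eomes cells, 11 for the genotype difference around Otx2 and 1 for the genotype difference around Calb2. RLE size factors gave 8 genes called within Eomes cells. With thinning to 1500 UMIs, co-detection of Tbr1 and Calb2 at 0.043 and co-detection of Eomes and Calb2 at 0.0049 changed sign. With no thinning, the Tbr1 share at 0.033, the Eomes share at 0.51 and co-detection of Tbr1 and Otx2 at 0.082 changed sign. With the expectation over all thinnings, co-detection of Otx2 and Calb2 at -0.23 changed sign.

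Leaving out 1 library at a time moved these counts of called genes. Around Calb2 it was 56 (without control 1) to 101 (without CKO 2). Around Calb2 in cluster 5 it was 77 (without CKO 1) to 264 (without CKO 2). Around Eomes it was 320 (without control 1) to 634 (without control 2). Around Eomes in cluster 5 it was 0 (without CKO 1) to 104 (without control 2). Around Eomes in granule lineage-like cells it was 96 (without control 1) to 771 (without CKO 1). Around Otx2 it was 867 (without control 1) to 1319 (without control 2). Around Otx2 in granule lineage-like cells it was 196 (without CKO 2) to 592 (without control 2). Around Tbr1 it was 585 (without CKO 1) to 1273 (without control 2). Around Tbr1 in cluster 5 it was 34 (without control 2) to 84 (without control 1). Over all kept cells it was 0 (without CKO 1) to 1398 (without control 1). In cluster 5 it was 14 (without control 2) to 73 (without CKO 2). In the excitatory nuclei neuron-like class it was 62 (without CKO 1) to 1428 (without CKO 2). In the granule lineage-like class it was 4 (without control 2) to 292 (without CKO 2). For the genotype difference around Calb2 it was 4 (without CKO 1) to 41 (without control 1). For the genotype difference around Eomes it was 4 (without CKO 1) to 25 (without control 1). For the genotype difference around Otx2 it was 1 (without CKO 1) to 53 (without control 2). For the genotype difference around Tbr1 it was 1 (without CKO 1) to 16 (without control 2). Within Calb2 cells it was 12 (without CKO 1) to 1028 (without control 1). Within Eomes cells it was 0 (without control 2) to 160 (without CKO 1). Within Otx2 cells it was 0 (without CKO 1) to 44 (without control 1). Within Tbr1 cells it was 61 (without control 2) to 138 (without CKO 2). It also moved these log2 values, CKO against control or cells with against without a UMI. Co-detection of Eomes and Calb2 ran from -1.65 (without CKO 1) to 0.40 (without CKO 2). Co-detection of Otx2 and Calb2 ran from -0.93 (without control 1) to 2.38 (without control 2). Calb2 around Eomes ran from 0.21 (without CKO 1) to 1.15 (without control 2). Calb2 around Eomes in cluster 5 ran from -0.77 (without CKO 1) to 0.15 (without control 2). Calb2 over all kept cells ran from -3.49 (without CKO 1) to -0.76 (without control 2). Eomes around Calb2 ran from -0.031 (without control 1) to 0.15 (without CKO 2). Otx2 around Calb2 ran from -0.18 (without control 1) to 0.23 (without CKO 2). Otx2 around Eomes ran from 0.29 (without CKO 1) to 0.80 (without control 1). Otx2 around Tbr1 ran from -1.97 (without control 2) to -1.12 (without CKO 1). Otx2 over all kept cells ran from 0.41 (without control 2) to 2.71 (without control 1). Tbr1 around Eomes ran from -0.10 (without control 2) to 0.54 (without CKO 1). Tbr1 over all kept cells ran from -2.65 (without CKO 1) to 0.32 (without control 2). Tbr1 in cluster 5 ran from -0.52 (without CKO 1) to 0.45 (without CKO 2). Tbr1 in the excitatory nuclei neuron-like class ran from -3.25 (without CKO 1) to 0.63 (without control 2). Tbr1 in the granule lineage-like class ran from -2.08 (without CKO 1) to 0.094 (without control 2). The Otx2 share ran from -0.020 (without control 2) to 2.13 (without control 1). The Tbr1 share ran from -2.22 (without CKO 1) to 0.37 (without control 2).

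Control and CKO libraries carry the same replicate numbers, but the labels do not say whether same-numbered libraries were made together. Over 13267 genes the deviations of same-numbered libraries from their group means correlated at -0.303. With 2 libraries a group both pairs give this same value, and differences in make-up enter it, so it cannot settle the pairing. With the replicate block the genes called were 0 in the granule lineage-like class, 481 in the excitatory nuclei neuron-like class, 5 in cluster 5, 0 within Tbr1 cells, 12 within Eomes cells and 36 within Calb2 cells. Every named genotype call within Tbr1 cells was then lost, and En2 in the granule lineage-like class too (edgeR adjusted p = 0.15), while En2 within Calb2 cells passed. Tbr1 in cluster 5 changed sign, at -0.053. With the crossed replicate block, chosen after seeing the data, the genes called were 885 over all kept cells, 320 in the granule lineage-like class, 1227 in the excitatory nuclei neuron-like class, 11 in cluster 5, 343 within Tbr1 cells, 45 within Eomes cells, 19 within Otx2 cells and 37 within Calb2 cells.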

Other observations

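Gene lists not yet described add to the picture of each gene's company, as counts of genes called by edgeR with the median log2 fold change of the list. Around Tbr1, where 10.6% of all genes were called, 5 of 12 factors of nuclei neurons changed: Lmx1a and Meis2 (0.85) rose and Lhx2 (-0.85), Lhx9 (-1.24) and Pou3f2 (-0.83) fell, with a list median of -0.44. Meis2 was higher in Tbr1 cells of 3 libraries and not in control 2. Of 6 organiser genes Pax5 fell (-1.02, list median -0.35), and of 5 unipolar brush cell genes Lmx1a rose and Wls, which carries Wnt proteins to the cell surface, fell (-1.30, list median 0.16). Around Eomes, where 4.81% of all genes were called, 2 of the 12 nuclei factors rose (Lmx1a and Slc17a7) and 5 fell (Lhx2, Lhx9, Meis2, Pou3f1 and Pou3f2), with a list median of -0.55. Of 13 genes reported as TBR1 targets or partners Reln and Sox5 (0.49) rose and Ntng1 (-1.28) fell, and the EF-hand gene Pvalb fell.

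Around Otx2, where 5.22% of all genes were called higher and 7.2% lower, the neurogenic cascade was mixed: 4 of 13 genes rose (Hes6, Neurod1, by 0.75, Neurod4, by 2.35, and Pax6) and 3 fell (Elavl4, Nhlh1 and Nhlh2), with a list median of -0.06. Neurod4 was higher in 3 libraries and not in control 2. Of 13 EF-hand genes Kcnip3 (-1.15), Necab3 and Pvalb fell, and of 5 unipolar brush cell genes Plcb4 (-1.20) fell. Of the T-box genes tested, Eomes was the 1 of 3 called around Otx2, Tbr1 the 1 of 3 called around Calb2, and 0 of 2 were called around Tbr1 or Eomes. Around Calb2, where 0.859% of all genes were called, Lmx1a was the 1 gene called in the unipolar brush cell list and in the nuclei list, and 0 were called in the neurogenic, organiser and TBR1 lists.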
